A study of Mus musculus with 22 samples.

Results

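Superoxide dismutase 1 (Sod1), the carbonyl reductases Cbr1 and Cbr3 and 7 genes linked to them by sequence or function were followed in the Ts66Yah mouse model of Down syndrome. The 10 genes were taken by name from the 55385 genes of the count table. They were the 3 triplicated genes Sod1, Cbr1 and Cbr3, the Sod1 pseudogene Gm8566, and the disomic genes Sod2, Sod3, Cat, Gpx1, Hmox1 and Nfe2l2. All 10 passed the filter on low counts in both regions. Reads were counted in hippocampus (HIP) and entorhinal cortex (EC) from 5 wild-type (wt) and 6 Ts66Yah adult male mice, which gave 22 libraries from 11 animals with library totals between 25900479 and 50105778 counts. Ts66Yah mice carry a minichromosome with an extra copy of mouse chromosome 16 (Mmu16) that starts at Mir155 and runs to its telomere, and the Mmu17 part of the parental Ts65Dn minichromosome had been deleted from it by CRISPR/Cas9. Wt mice were control littermates with 2 copies of Mmu16, both genotypes had the mixed B6C3B background, and all trisomic mice descended from a single founder. No treatment is named for either genotype.

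Superoxide dismutases turn superoxide into hydrogen peroxide: Sod1 in the cytosol with copper and zinc, Sod2 in mitochondria with manganese and Sod3 outside the cell. Catalase (Cat) and glutathione peroxidase 1 (Gpx1) remove the peroxide, and the balance of Sod1 with these enzymes has been studied in Down syndrome because SOD1 lies on human chromosome 21. Cbr1 and Cbr3 are cytosolic NADPH-dependent enzymes that reduce carbonyl groups, Hmox1 breaks down heme, and Nfe2l2 (Nrf2) is a transcription factor that switches on antioxidant genes when its inhibitor Keap1 releases it.

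The counts of Sod1 are given together with those of Gm8566, which shares much of its sequence. Sod1 (ENSMUSG00000022982) lies at chr16:90220754-90226329 on the plus strand of GRCm38, inside the triplicated segment. Gm8566 (ENSMUSG00000047905) is a processed pseudogene at chr6:67205619-67206083, also on the plus strand, and is not triplicated. Its 465 bases aligned without a gap to bases 105 to 569 of the 641-base Sod1 transcript in GENCODE M21, which is the whole coding region, with 10 mismatches (97.8% identity). Of the 592 windows of 50 bases in the Sod1 transcript, 137 (23.1%) occurred unchanged in Gm8566, and they were 32.9% of the 416 windows of Gm8566. Reads were 50 bases long, and how reads with several matches were counted is not given in the sources used here. Sod1 and Gm8566 were therefore also summed into 1 row. Sod1 overlaps Scaf4, a gene on the other strand that is triplicated too, and Gm8566 overlaps the antisense gene Gm38825; whether counting used the strand is not given either. Among the other members, Cbr1 shared 48 of 1188 windows with the gene Gm5678 and 1 with Cbr3, Sod2 shared 83 of 5812 windows with 411 other genes, and Sod3, Cat, Gpx1, Hmox1 and Nfe2l2 shared no window with another gene.

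Nfe2l2 acts through antioxidant response elements, whose core was searched as TGACNNNGC on both strands of the RefSeq promoters (GRCm38.p6). These promoters run from 250 bases before to 50 bases after the start used in that set. The promoters of 7 members were in that set, and 2 of the 7 genes held the letters, which occurred in 3781 of 27025 genes and in 17 of 64 genes of the antioxidant list described with the pathway (26.6%). The 2 matches are shown with the motif in capitals and the neighbouring bases in lower case. The Sod1 promoter spans chr16:90220512-90220811, with its match on the strand opposite to the gene, and the Nfe2l2 promoter spans chr2:75704614-75704913, with its match on the strand of the gene.
Sod1 promoter: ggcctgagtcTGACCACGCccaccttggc
Nfe2l2 promoter: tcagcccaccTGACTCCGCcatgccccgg
The windows of Cbr1, Cbr3, Sod2, Cat and Gpx1 did not hold these letters, and those of Sod3, Hmox1 and Gm8566 were not analysed here. The windows of Cbr1 (chr16:93607587-93607886) and Sod2 (chr17:13007589-13007888) lay inside the genes as annotated in GENCODE M21, which start at 93605853 and 13006846. The bases before those annotated starts were not searched for these 2 genes.

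Per kilobase of transcript, Sod1 was the most abundant of the 10 genes in wt mice. Levels of different genes are compared as CPM (counts scaled to the size of the library) per kilobase of the reference transcript, mean ± SD of the 5 wt libraries of a region. In wt HIP, Sod1 stood at 146 ± 19.4 CPM per kilobase. Gpx1 (37.4 ± 6.57), Gm8566 (36.1 ± 7.99) and Cbr1 (31.7 ± 4.87) followed and did not differ from each other beyond their spread. Cat (22.8 ± 1.36) and Sod2 (21.1 ± 1.14) came next, also within their spread. Nfe2l2 (7.45 ± 0.748), Cbr3 (5.43 ± 0.664), Hmox1 (4.02 ± 0.292) and Sod3 (2.47 ± 0.599) were lowest, and the ranges of 1 SD of these last 4 genes did not overlap. In wt EC, Sod1 was again highest (177 ± 32.6) and Sod3 (2.61 ± 0.540) and Hmox1 (3.07 ± 0.520) lowest and within their spread, while Gpx1 (60.3 ± 16.3), Gm8566 (42.5 ± 14.2) and Cbr1 (35.2 ± 9.01) each overlapped with the next. Sod2 (20.8 ± 1.67) and Cat (19.97 ± 0.878) were again alike, and Nfe2l2 (6.17 ± 0.344) and Cbr3 (5.06 ± 0.622) lay below them. The value of Sod2 depends on its long reference transcript of 5861 bases. In CPM without this scaling, Sod2 stood above Sod1 in wt HIP (124 ± 6.70 against 93.8 ± 12.4). In wt EC the means were 122 ± 9.81 for Sod2 and 113 ± 20.9 for Sod1, within their spread.

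The first comparison asked whether the extra copy raised the triplicated members in HIP. Sod1 and Cbr3 rose in Ts66Yah HIP by 1.35-fold and 1.44-fold, Cbr1 was 1.32-fold higher without passing the threshold, and the disomic pseudogene Gm8566 rose by 1.55-fold. An adjusted p under 0.05 was reached by 3 of the 10 members, all higher, against 0.439% of the 18452 genes tested, and by 57.4% of the 101 tested genes of the triplicated segment. All 4 of these genes had wt and Ts66Yah ranges that did not overlap, a separation found in either direction for 1.94% of the genes tested.

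Sod1 in HIP was 87.7, 82.9, 114, 87.0 and 97.8 CPM in the wt replicates 1 to 5, and in Ts66Yah mice it ranged from 120 to 133 CPM with a median of 126. The lowest Ts66Yah library lay above the highest wt library, replicate 3. The log2 fold change was 0.43 (SE 0.069, edgeR adjusted p 0.00700).
Gm8566 in HIP was 17.3, 11.7, 14.6, 19.3 and 21.1 CPM in wt and from 23.3 to 28.6 CPM, median 25.7, in Ts66Yah mice, and again no wt library reached the Ts66Yah range. Its log2 fold change was 0.63 (SE 0.12, edgeR adjusted p 0.0340), and the call was lost in 7 of the 11 fits that left out 1 library, among them those without wt replicate 1 (adjusted p 0.0733) and wt replicate 3 (0.119).
The sum of Sod1 and Gm8566 in HIP was 105, 94.6, 128, 106 and 119 CPM in wt and from 145 to 162 CPM, median 151, in Ts66Yah mice, which is 1.38-fold (log2 0.47, SE 0.066, edgeR adjusted p 0.00229). The sum, which does not depend on how the counted reads were split between both rows, also rose. Reads with several matches would be missing from the sum if counting left them out.

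Cbr1 (ENSMUSG00000051483, chr16:93605853-93610505) in HIP was 32.3, 33.6, 44.7, 40.1 and 45.1 CPM in wt and from 48.2 to 56.3 CPM, median 50.9, in Ts66Yah mice. Every Ts66Yah library was above every wt library, and the difference was 1.32-fold (log2 0.40, SE 0.085, edgeR adjusted p 0.0560). The adjusted p was 0.00161 with DESeq2, and 0.0227 and 0.0480 in edgeR with no filter and with a filter that kept genes reaching 1 CPM in 5 or more libraries. Of 9 other settings in all, 4 called Cbr1, these included, and the rest did not. Its log2 fold change ranged from 0.33 to 0.44 over them.
Cbr3 (ENSMUSG00000022947, chr16:93683215-93690990), its close relative, was 5.95, 5.19, 7.02, 6.95 and 6.67 CPM in wt HIP and from 8.29 to 10.8 CPM, median 8.95, in Ts66Yah HIP. The groups did not overlap, and the log2 fold change was 0.53 (SE 0.10, edgeR adjusted p 0.0281). The call was lost in 4 of the 11 fits without 1 library and with all 22 libraries in 1 fit (adjusted p 0.116), where Gm8566 was lost too (0.112). With a block for 2 ranges of animal numbers, which left out 1 animal, none of the 10 members was called in HIP. The edgeR adjusted p was 0.0529 for Sod1, 0.0614 for Gm8566 and 0.108 for Cbr3. In this fit 5 members had an unadjusted p under 0.05, and no share of all genes is given for it.

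**Figure D1:**
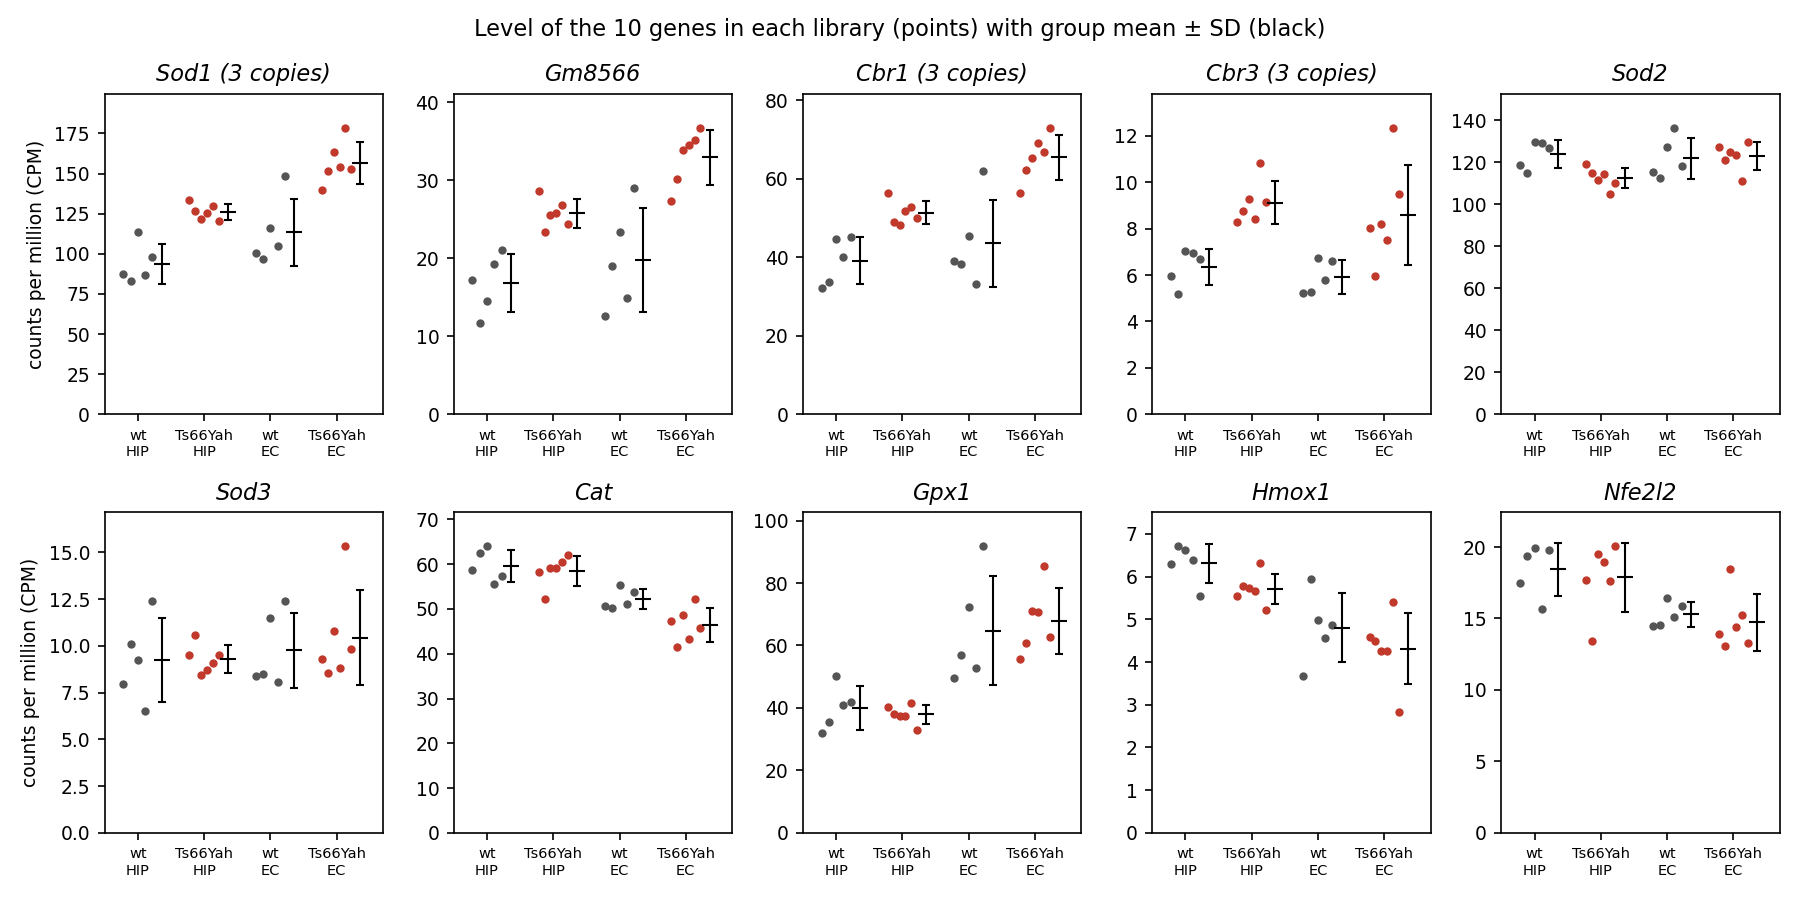
Each panel shows 1 gene, with the level in CPM (from 0) on the vertical axis, the 4 groups on the horizontal axis, a point for each library in order of replicate number (grey wt, red Ts66Yah), and the mean ± SD in black. In HIP the Ts66Yah points of Sod1, Gm8566, Cbr1 and Cbr3 all lie above the wt points, and in EC wt replicate 5 lies among or next to the Ts66Yah points of Sod1, Gm8566 and Cbr1.

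In EC the fold changes of the same genes were of like size, but none of the 10 members passed the threshold, against 0.283% of the 17658 genes tested (0.272% higher and 0.0113% lower) and 48.4% of the 93 tested segment genes that were called higher. An unadjusted p under 0.05 was reached by 5 members, Sod1, Gm8566, Cbr1 and Cbr3 being higher and Cat lower, against 6.25% of all genes tested. DESeq2 called Sod1, Gm8566 and Cbr1 (adjusted p 0.00496, 0.00569 and 0.00390), as did edgeR with all 22 libraries in 1 fit. The shares of genes called above are those of the main edgeR fit, and none is given for these settings. Within edgeR, leaving out 1 wt library, replicate 5, brought Sod1, Gm8566, Cbr1 and the sum past the threshold.
Sod1 in EC was 101, 97.0, 116, 105 and 149 CPM in wt and from 140 to 178 CPM, median 153, in Ts66Yah mice. Wt replicate 5 was above the lowest Ts66Yah library, and the other 4 wt libraries were below them all. The log2 fold change was 0.46 (SE 0.10, edgeR adjusted p 0.121), and 0.57 without wt replicate 5 (adjusted p 0.00369).
Cbr1 in EC was 39.0, 38.3, 45.4, 33.1 and 61.9 CPM in wt and from 56.5 to 73.0 CPM, median 66.0, in Ts66Yah mice. Wt replicate 5 again lay inside the Ts66Yah range. The log2 fold change was 0.58 (SE 0.13, adjusted p 0.134), and 0.74 without this library (edgeR adjusted p 0.00251).
Gm8566 in EC was 12.6, 19.05, 23.4, 14.9 and 29.0 CPM in wt and from 27.3 to 36.7 CPM, median 34.2, in Ts66Yah mice, 1.66-fold higher on the fitted scale (log2 0.73, SE 0.17, edgeR adjusted p 0.188). Wt replicate 5 alone lay inside the Ts66Yah range, and without it the log2 fold change was 0.90 (edgeR adjusted p 0.0218).
The sum of Sod1 and Gm8566 in EC was 1.42-fold higher (log2 0.50, SE 0.11, edgeR adjusted p 0.0986), with a log2 value of 0.62 without wt replicate 5 (adjusted p 0.00252). Wt replicate 5 stood at 178 CPM, against 113, 116, 139 and 120 CPM in the other wt libraries and 167 to 214 CPM, median 189, in Ts66Yah mice.
Cbr3 in EC was 5.23, 5.25, 6.75, 5.77 and 6.62 CPM in wt and from 5.97 to 12.3 CPM, median 8.12, in Ts66Yah mice. Its groups overlapped at the low end of the Ts66Yah mice, and its log2 fold change of 0.53 (SE 0.16) had an edgeR adjusted p of 0.456, and of 0.587 without wt replicate 5.

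**Figure D2:**
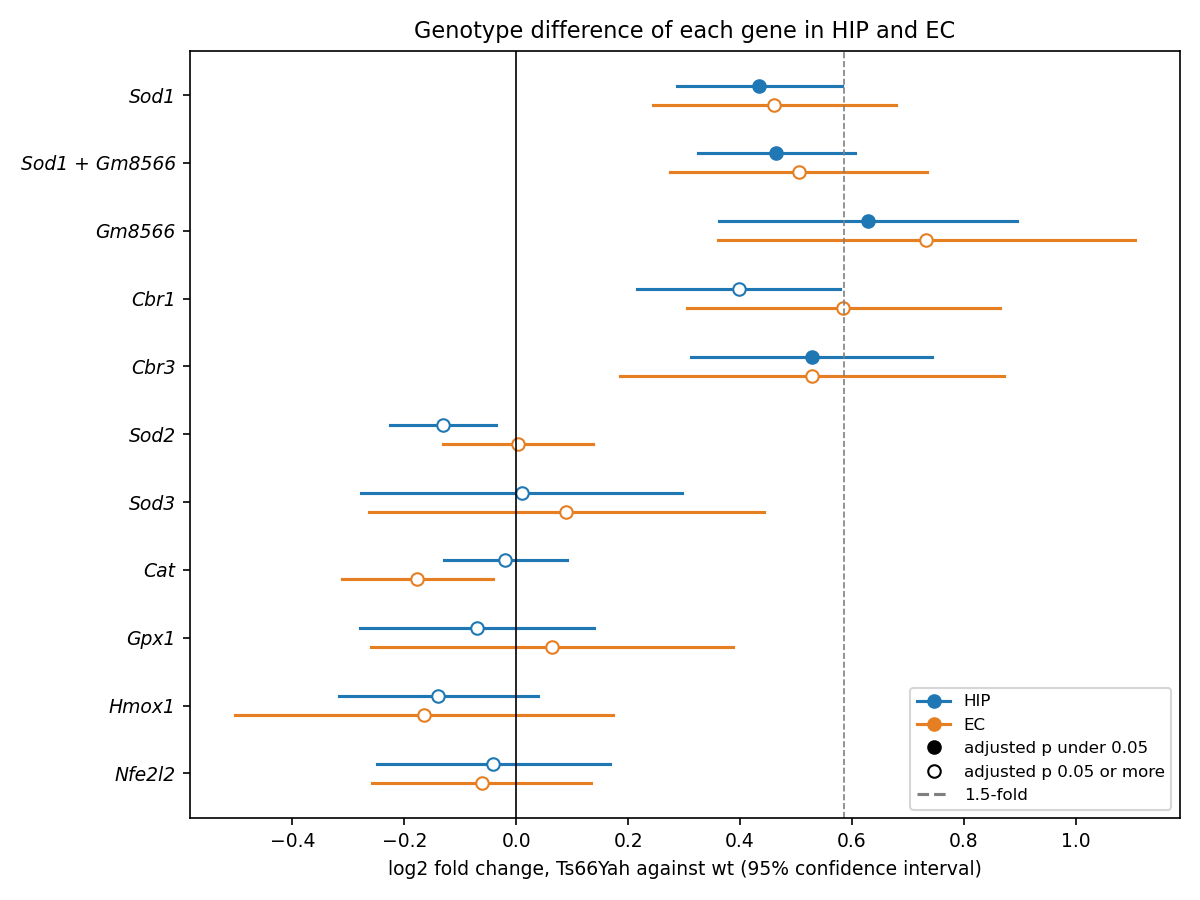
The horizontal axis gives the log2 fold change of Ts66Yah against wt with its 95% confidence interval for each gene and for the sum of Sod1 and Gm8566, in HIP (blue) and EC (orange). Filled points have an edgeR adjusted p under 0.05, the solid line marks no change and the dashed line 1.5-fold. Sod1, the sum, Gm8566, Cbr1 and Cbr3 lie right of 0 in both regions, with filled points in HIP for all of them but Cbr1, and the 6 disomic enzymes and regulators lie around 0.

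A measure of the libraries went with the levels of some of these genes, but not in every group. For each library, the median deviation from the region mean on the log2 CPM scale was taken over 306 disomic genes with a longest transcript under 1000 bases and 10 CPM or more on average, minus the same over 4531 genes with one over 4000 bases. This short-transcript measure was highest in wt EC replicate 5 (0.38) and Ts66Yah EC replicate 5 (0.31), and ranged from -0.22 to 0.13 in the other EC libraries and from -0.19 to 0.15 in HIP. The same EC libraries had the highest mitochondrial shares of counts of all 22, 5.09% and 6.18%, against 3.68% to 4.85% in the others. Sod1 was highest of its group in both of these libraries (149 and 178 CPM), as was Gpx1, whose transcript of 1072 bases is also short (91.7 and 85.6 CPM). In HIP the wt library with the highest measure, replicate 3, had the highest Sod1 of wt HIP, and the one with the lowest, replicate 2, the lowest. Other libraries went differently. Sod1 in wt HIP was 87.0 CPM in replicate 4, with a measure of 0.087, against 87.7 CPM in replicate 1 (-0.054). In Ts66Yah EC, Cbr1 (73.0 CPM) and Gm8566 (36.7 CPM) were highest in replicate 6, which had the lowest measure (-0.22). Sod1 in Ts66Yah HIP was 127 CPM in replicate 2, which had the highest measure (0.079), against 133 CPM in replicate 1 (-0.057). The part of this measure in the genotype differences was not tested beyond the fit that follows. With the measure as a covariate, a fit added after these values were seen, the log2 fold changes in EC were 0.51 for Sod1 (edgeR adjusted p 0.00153), 0.83 for Gm8566 (0.0385), 0.65 for Cbr1 (0.0268) and 0.56 for the sum (0.00166), all called, and 0.56 for Cbr3 (0.245). In HIP, Cbr1 was then called as well (0.44, adjusted p 0.0114), and Sod1, Gm8566, Cbr3 and the sum stayed called.

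**Figure D3:**
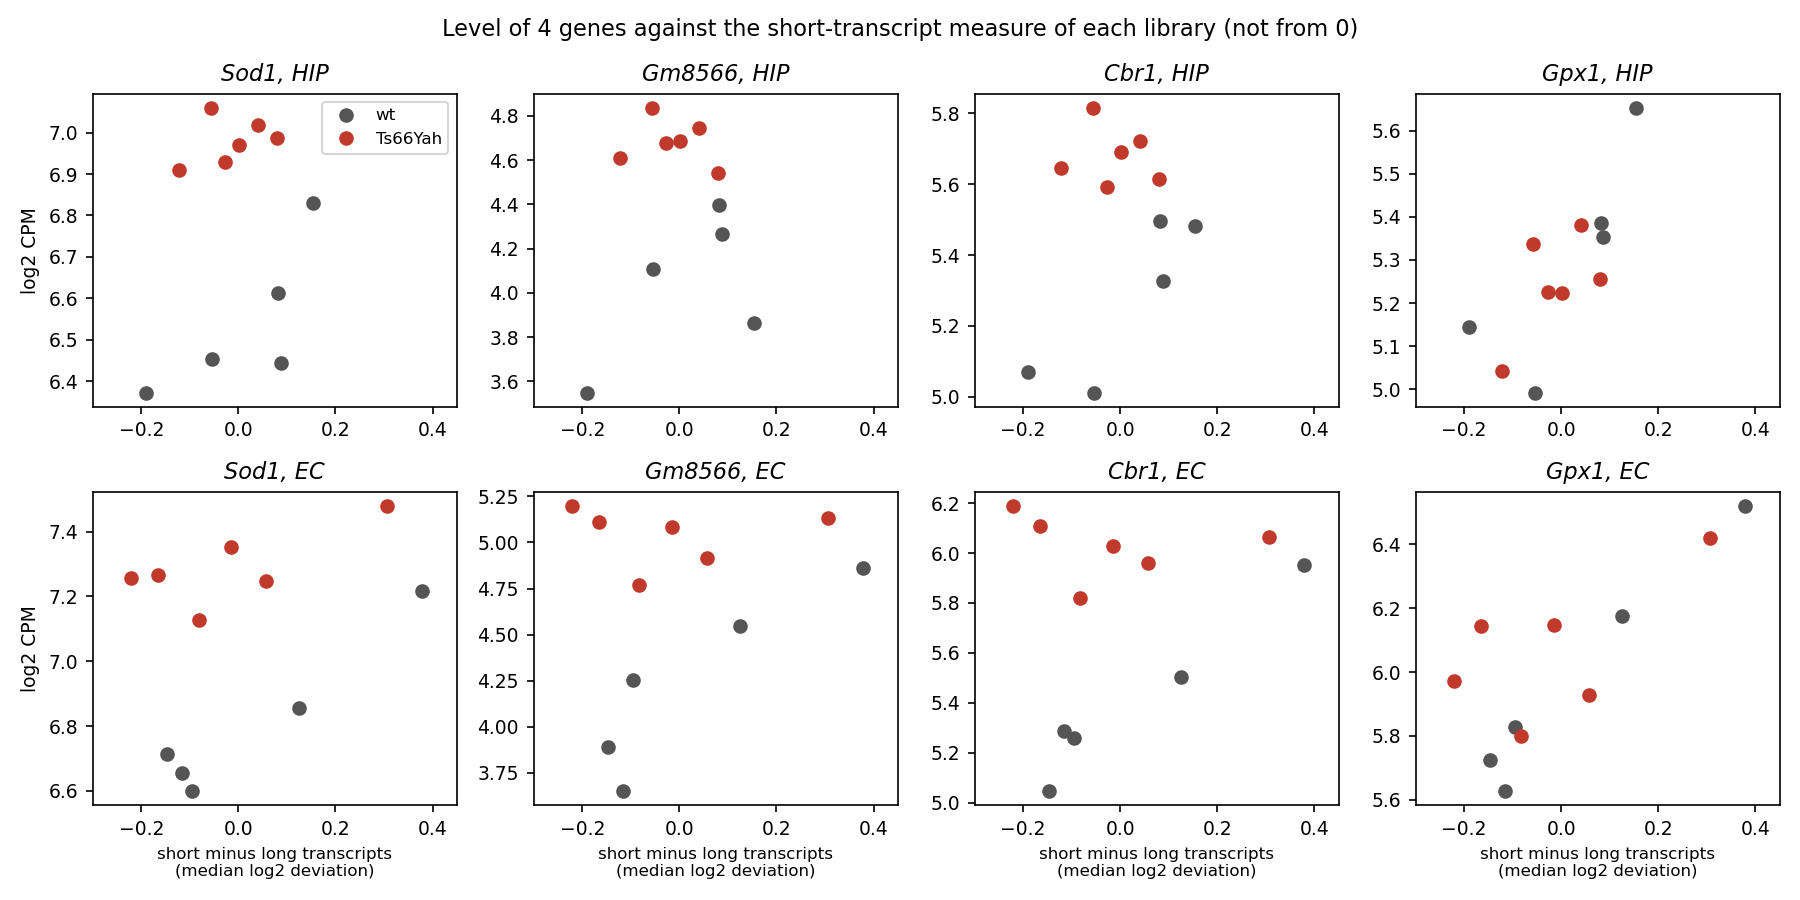
Each panel plots the log2 CPM of Sod1, Gm8566, Cbr1 or Gpx1 (vertical axis, not starting at 0) against the short-transcript measure (horizontal axis, log2) of the 11 libraries of HIP (top) or EC (bottom), with wt in grey and Ts66Yah in red. The EC libraries with measures of 0.31 and 0.38 lie at the right of the lower panels, where Gpx1 is highest in both genotypes, and wt Sod1, Gm8566 and Cbr1 reach the levels of Ts66Yah mice.

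An extra copy alone would give 1.5-fold, and the distance from that value was tested directly. None of Sod1, Cbr1, Cbr3 and the sum differed from 1.5-fold after adjustment over the tested segment genes, of which 5.94% did in HIP and 1.08% in EC. In HIP, Sod1 lay 0.15 below on the log2 scale (95% interval of the fold change 0.29 to 0.58, edgeR unadjusted p 0.0444, adjusted p 0.224), and Cbr1 0.19 below (0.22 to 0.58, unadjusted p 0.0428, adjusted p 0.224). The differences were -0.12 for the sum in HIP (adjusted p 0.338) and -0.06 for Cbr3 (0.799). In EC they were -0.12 for Sod1 (edgeR adjusted p 0.735), -0.08 for the sum (0.872), -0.06 for Cbr3 (0.904) and under 0.01 in size for Cbr1 (0.999). Single wt libraries moved the distances of Sod1 and the sum. Without 1 library, that of Sod1 in HIP ranged from -0.19 to -0.077 and that of the sum from -0.17 to -0.066, both nearest to 1.5-fold without wt replicate 3 (edgeR adjusted p 0.451 and 0.661). In EC, that of Sod1 ranged from -0.17 to -0.014 and that of the sum from -0.12 to 0.039, with the upper ends without wt replicate 5 (adjusted p 0.947 and 0.891). Ordered from the highest fold change, Sod1, Cbr1 and Cbr3 took places 83, 86 and 67 of the 101 segment genes in HIP, whose median log2 fold change was 0.59 with quartiles of 0.49 and 0.68. They took places 68, 44 and 59 of 93 in EC (median 0.57, quartiles 0.46 and 0.67).
Scaf4, whose reads overlap those of Sod1 if strand was not used, had log2 fold changes of 0.36 in HIP (edgeR adjusted p 0.0565) and 0.32 in EC (0.524), from means of 28.5 and 20.6 CPM in wt.

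The share of Gm8566 in the summed counts was also compared. Sod1 reads placed on Gm8566 and transcription of Gm8566 itself cannot be told apart by this share. In HIP it was 16.4%, 12.4%, 11.4%, 18.1% and 17.7% in wt replicates 1 to 5 (15.2% ± 3.13, SD, n = 5), and from 15.5% to 17.6% in Ts66Yah mice (16.9% ± 0.740, SD, n = 6). In EC it was 11.1%, 16.4%, 16.8%, 12.4% and 16.3% in wt (14.6% ± 2.65, SD, n = 5) and from 16.3% to 19.4% in Ts66Yah mice (17.4% ± 1.22, SD, n = 6). Ts66Yah shares were thus close together, whereas wt shares fell at 11.1% to 12.4% in 4 libraries and at 16.3% to 18.1% in the other 6. The 95% Wilson interval of the highest of the low shares was 11.4% to 13.5% and that of the lowest of the others 15.4% to 17.3%, so the gap is wider than counting error, the only error these intervals cover. The low shares came from HIP of wt replicates 2 and 3 and EC of wt replicates 1 and 4, and the other region of each of these mice had a share of 16.4% to 18.1%.
The mean share was higher in Ts66Yah mice by 1.73 percentage points in HIP (two-sided exact permutation test over 462 splits, p = 0.281) and by 2.76 points in EC (exact p = 0.0281, adjusted over both regions p = 0.0563). Neither difference passed the threshold. The HIP difference was smaller without either of the 2 wt libraries with low shares, 0.773 points without wt replicate 3 (exact p = 0.633) and 1.03 points without wt replicate 2 (exact p = 0.595), and reached 2.46 points without wt replicate 4. The EC difference ranged from 1.89 to 3.31 points without 1 library, and its adjusted p was under 0.05 only without wt replicate 3 (exact adjusted p = 0.0190).

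**Figure D4:**
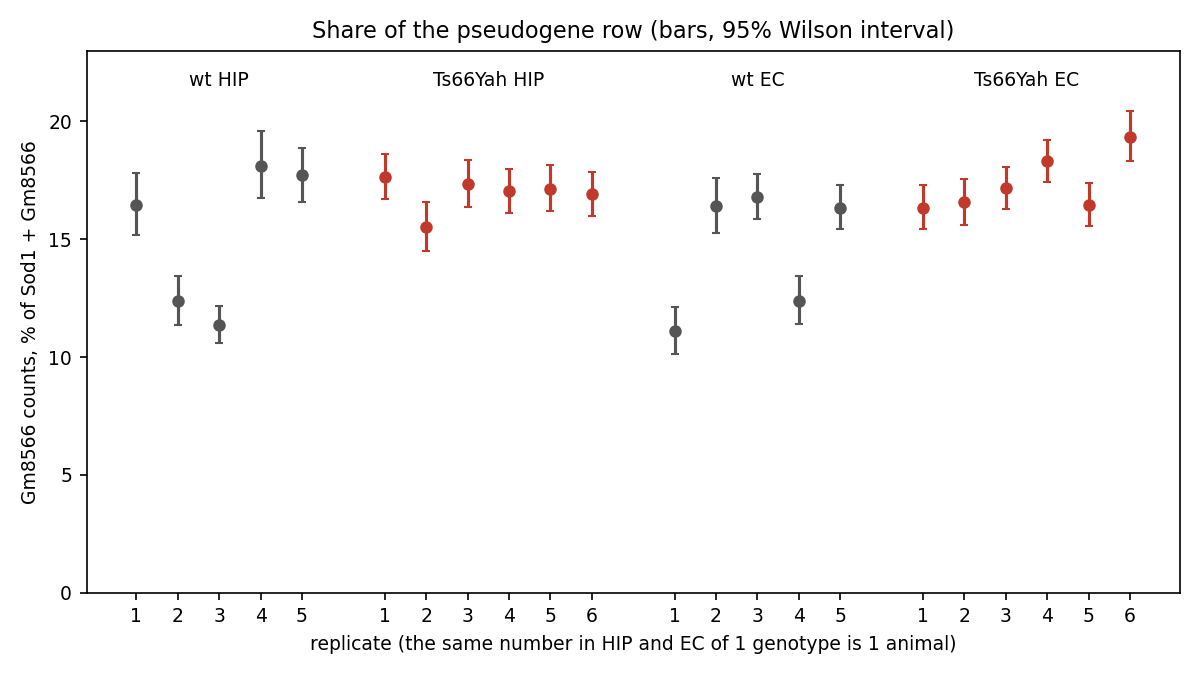
The vertical axis gives Gm8566 as a percentage of the summed Sod1 and Gm8566 counts in each library (grey wt, red Ts66Yah), with the 95% Wilson interval, by replicate number and group. The 4 wt libraries at 11.1% to 12.4% stand apart from the other 18, which lie between 15.5% and 19.4%.

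None of Sod2, Sod3, Cat, Gpx1, Hmox1 and Nfe2l2, the 6 disomic members apart from the pseudogene, passed the threshold for the genotype in either region, with edgeR or DESeq2. Sod2, the mitochondrial superoxide dismutase, was 119, 115, 130, 129 and 127 CPM in wt HIP and from 105 to 119 CPM, median 113, in Ts66Yah HIP. The ranges overlapped and the log2 fold change was -0.13 (SE 0.044, edgeR unadjusted p 0.0104, adjusted p 0.252). In EC it was 112 to 136 CPM in wt and 111 to 130 CPM in Ts66Yah mice (0.00, SE 0.062, adjusted p 0.998).
Catalase was 58.8, 62.5, 64.0, 55.5 and 57.4 CPM in wt HIP and from 52.2 to 62.0 CPM, median 59.2, in Ts66Yah HIP (-0.02, SE 0.051, edgeR adjusted p 0.922). In EC it was 50.6, 50.1, 55.4, 51.0 and 53.7 CPM in wt and from 41.5 to 52.2 CPM, median 46.5, in Ts66Yah mice. Only 1 of the 6 Ts66Yah libraries, replicate 5, was inside the wt range, yet the log2 fold change of -0.18 (SE 0.063, unadjusted p 0.0142) had an edgeR adjusted p of 0.643.
Gpx1 had log2 fold changes of -0.07 in HIP (SE 0.097, edgeR adjusted p 0.838) and 0.06 in EC (SE 0.15, 0.989), and ranged from 31.8 to 50.3 CPM in wt HIP, 33.0 to 41.7 in Ts66Yah HIP, 49.5 to 91.7 in wt EC and 55.7 to 85.6 in Ts66Yah EC. The 95% intervals of its log2 fold change, from -0.28 to 0.14 and from -0.26 to 0.39, lay below 1.5-fold. The extracellular Sod3 was low in every group, between 6.50 and 15.3 CPM, with values of 0.01 (SE 0.13, adjusted p 0.990) and 0.09 (SE 0.16, 0.981).
Hmox1, the heme oxygenase, was 6.29, 6.71, 6.62, 6.38 and 5.55 CPM in wt HIP and from 5.22 to 6.32 CPM, median 5.70, in Ts66Yah HIP. Its log2 fold change was -0.14 (SE 0.083, edgeR adjusted p 0.543) in HIP and -0.16 (SE 0.16, 0.965) in EC, where wt libraries had 3.68 to 5.94 CPM and Ts66Yah libraries 2.84 to 5.40 CPM. Nfe2l2 ranged from 15.6 to 19.9 CPM in wt HIP, 13.4 to 20.04 in Ts66Yah HIP, 14.5 to 16.4 in wt EC and 13.0 to 18.5 in Ts66Yah EC, with log2 fold changes of -0.04 (SE 0.097, adjusted p 0.915) and -0.06 (SE 0.091, 0.975). All 6 genes had overlapping genotype groups in both regions, and in EC so had all 10 members, where 0.900% of the genes tested did not overlap in either direction. Since whole tissue was sequenced, fewer cells of a type and less RNA per cell cannot be told apart in any of these values.

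A list of 75 antioxidant genes was used to describe the pathway around the members, and 74 of them were found and tested. In HIP, 3 rose (Sod1, Cbr3 and Bach1, all of the triplicated segment) and none fell, beside 0.439% higher and 0.152% lower over all genes tested and 57.4% of the segment genes, with a median log2 fold change of -0.01 beside 0.00 over all genes tested. In EC, 1 rose (Bach1) and none fell, beside 0.272% and 0.0113% of all genes and 48.4% of the segment genes, with a median of -0.06 beside -0.00. Leaving out the triplicated genes, 0 of 70 were called in either region by edgeR, and 8 in HIP and 6 in EC had an unadjusted p under 0.05, against 11.9% of all genes tested in HIP and 6.25% in EC. With DESeq2 the list held 5 called genes in HIP and 3 in EC, of which 1 was disomic, the glutathione transferase Gstm5 in HIP (-0.22, adjusted p 0.0283), named here after its value was seen. The shares of all genes above are from edgeR, and none is given for DESeq2.
By role, the called genes in HIP were 1 of 6 for superoxide dismutation and copper delivery, 0 of 12 for peroxide removal, 0 of 16 for glutathione, 0 of 7 for the thioredoxin system, 1 of 7 for carbonyl reduction, 1 of 10 for control of the response, and 0 of 16 for heme, iron and other Nfe2l2 targets. In EC the only called gene was in the control group. Median log2 fold changes by role lay between -0.08 and 0.02 in HIP and between -0.09 and 0.03 in EC.
Bach1, a triplicated repressor of Hmox1 and of other Nfe2l2 targets, had log2 fold changes of 0.44 in HIP (SE 0.067, edgeR adjusted p 0.00569) and 0.59 in EC (SE 0.078, 0.00273), from means of 15.5 and 13.1 CPM in wt to 20.8 and 19.9 CPM in Ts66Yah mice. Keap1, the inhibitor of Nfe2l2, had -0.22 in HIP (SE 0.067, edgeR adjusted p 0.200) and -0.03 in EC (0.990), and of the fits without 1 library in HIP it was called only without wt replicate 2 (-0.28, adjusted p 0.0255). Ccs, the chaperone that gives Sod1 its copper, is disomic and had -0.08 in HIP (edgeR adjusted p 0.786) and -0.18 in EC (0.797). Cbr2, a carbonyl reductase not triplicated here, was near 1 CPM or below on average in every group, with values of 0.32 in HIP (adjusted p 0.717) and -0.56 in EC (0.853).

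**Figure D5:**
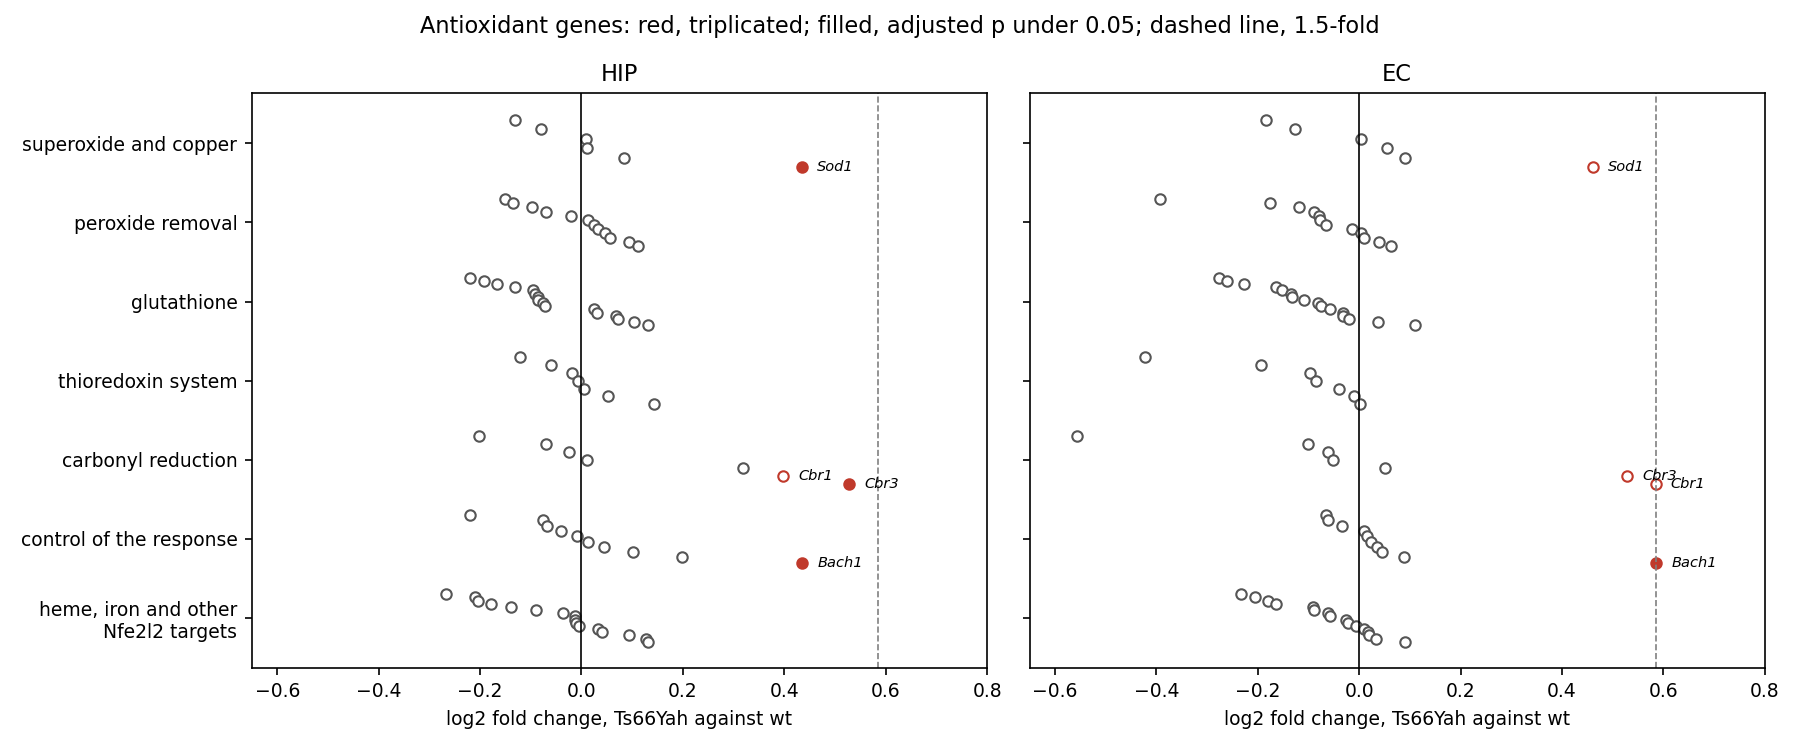
The horizontal axis gives the log2 fold change of Ts66Yah against wt for the 74 tested antioxidant genes in HIP (left) and EC (right), 1 row per role, with triplicated genes in red and named, and filled points for an edgeR adjusted p under 0.05. The red points lie between 0.40 and 0.59, and the open grey points of the disomic genes lie on both sides of 0 without a call.

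Regions were then compared within wt mice, 5 HIP against 5 EC libraries of the same animals. The edgeR fit did not pair the regions of an animal, and with the animal as a block no call of a member changed. Gpx1 was higher in EC by 1.63-fold (log2 difference 0.71, SE 0.16, edgeR adjusted p 0.00283) and Sod1 by 1.22-fold (0.29, SE 0.11, 0.0497). Hmox1 (-0.37, SE 0.12, adjusted p 0.0245), Nfe2l2 (-0.25, SE 0.079, 0.0174) and Cat (-0.17, SE 0.056, 0.0211) were lower in EC. The 5 called members of 10 compare with 47.7% of the 17935 genes tested, 23.4% higher and 24.3% lower in EC, so members were called about as often as genes in general. The call of Sod1 was lost in 7 of the 10 fits without 1 library (adjusted p 0.0204 to 0.113), and it was 0.18 without wt EC replicate 5. The call of Cat was lost in 3 of them, without HIP replicates 2 and 3 and EC replicate 2 (adjusted p up to 0.0554), and that of Hmox1 in 2, without HIP replicate 2 and EC replicate 1 (up to 0.0551). None of these fits paired the regions. Within animals, Sod1 was higher in EC in all 5 wt mice, by 0.027 to 0.60 on the log2 CPM scale.
Gm8566 (0.26, edgeR adjusted p 0.349), Cbr1 (0.17, 0.380), Cbr3 (-0.08, 0.599), Sod2 (-0.00, 0.974) and Sod3 (0.09, 0.680) did not pass the threshold. Of the antioxidant list, 28 of 74 genes were higher and 11 lower in wt EC. These counts stand beside the 23.4% and 24.3% of all genes tested. By role, those higher and lower in EC were 2 and 0 of 6 for superoxide dismutation and copper delivery, 8 and 1 of 12 for peroxide removal, 4 and 2 of 16 for glutathione, 5 and 1 of 7 for the thioredoxin system, 3 and 0 of 7 for carbonyl reduction, 2 and 3 of 10 for control of the response, and 4 and 4 of 16 for heme, iron and other Nfe2l2 targets. Median log2 differences by role lay between -0.06, for this last role, and 0.35, for the thioredoxin system, beside 0.01 over all genes. The plasma-type glutathione peroxidase Gpx3 was higher at 1.67 (3.53 ± 0.727 CPM in HIP, 11.1 ± 1.53 in EC, SD, n = 5). The cystine transporter Slc7a11 (0.98), the microsomal glutathione transferase Mgst3 (1.02) and Cbr2 (1.20) were also higher in EC, and the glutathione transferase Gstm7 (-0.88) was lower, all called by edgeR.

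Marker levels of other cell types differed between the regions beside these values. Summed over each list of markers, the 6 oligodendrocyte genes reached 7251 to 10740 CPM in HIP and 1385 to 3469 CPM in EC over both genotypes, and the 8 choroid plexus genes 366 to 5500 CPM in HIP and 177 to 301 CPM in EC, with all 8 detected in every library. Higher in EC were the 5 erythroid genes (85.6 to 233 CPM in HIP, 247 to 678 in EC) and the 6 neuronal genes (6418 to 7290 in HIP, 8499 to 9330 in EC). The 6 striatal genes were also higher there (57.6 to 79.1 CPM in HIP, 139 to 277 in EC). The astrocyte, microglia, endothelial and meningeal lists overlapped between the regions. The tissue labels were checked with markers: 8 hippocampal markers summed to 559 to 738 CPM in HIP and 242 to 343 CPM in EC, and 6 cortical markers to 145 to 209 CPM in HIP and 473 to 773 CPM in EC. Within a region, the wt and Ts66Yah ranges overlapped for all 11 marker lists. The part of cell types in the region differences was not tested.

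The same region comparison within the 6 Ts66Yah mice, added after the data had been seen, called 8 of the 10 members, against 54.0% of 18043 genes. Gpx1 (0.83), Gm8566 (0.36), Cbr1 (0.35), Sod1 (0.31) and Sod2 (0.13) were higher in EC and Hmox1 (-0.40), Cat (-0.34) and Nfe2l2 (-0.28) lower. Cbr1, Gm8566 and Sod2 passed the threshold here and not in wt mice, but the interaction of genotype and region, which tests this difference, called none of 19074 genes (0% with edgeR and none with DESeq2, with 388 and 560 genes at an unadjusted p under 0.05). The interaction terms largest in size were 0.19 for Cbr1 (95% interval -0.15 to 0.53), -0.16 for Cat (-0.32 to 0.01) and 0.14 for Sod2 (-0.02 to 0.29), and that of Sod1 was 0.03 (-0.24 to 0.29). This edgeR fit took the 22 libraries as separate samples. With each animal as a block, so that both regions of an animal were compared with each other, again 0 genes were called and 726 had an unadjusted p under 0.05. The blocked edgeR terms were 0.14 for Sod2 (unadjusted p 0.0320, against 0.0797 without the block) and -0.16 for Cat (0.0270, against 0.0625), and the other 8 members had an unadjusted p of 0.112 (Cbr1) or higher.
Within each animal, EC minus HIP on the log2 CPM scale was -0.041, -0.030, -0.029, 0.078 and -0.10 for Sod2 in wt replicates 1 to 5, and from 0.073 to 0.24, median 0.10, in the 6 Ts66Yah mice. For Cat it was -0.22, -0.32, -0.21, -0.12 and -0.095 in wt and from -0.45 to -0.21, median -0.32, in Ts66Yah mice. The genotypes overlapped for both genes, for Sod2 through wt replicate 4 alone.

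Across the 22 libraries, after centring log2 CPM on the region mean, the genes most like Sod1 among 9901 genes that averaged 10 CPM or more were Hmgn1 (r = 0.948), Mrps6 (0.932) and Atp5j (0.931), all triplicated. These correlations describe 22 libraries of 2 genotypes and of unequal short-transcript measure, which the genes share. Cbr1 was most like Sod1 (r = 0.930), Mrps6 and Hmgn1, and Cbr3 most like Psmg1 (0.868), Zbtb21 and Hmgn1, again triplicated genes. Gm8566 was most like the triplicated Atp5j (0.909), Cbr1 and the disomic Serf2 (0.905). The genes most like the disomic members were disomic: Mif for Gpx1 (0.908), Max for Cat (0.877), Sox4 for Sod2 (0.852), Bckdk for Hmox1 (0.814), Nfkbia for Sod3 (0.786) and Bmpr1b for Nfe2l2 (0.748).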

How the data were processed

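Both brain regions of the same 11 animals were sequenced, and the replicate libraries of a group came from separate animals. According to the methods, the authors aligned single-end reads of 50 bases with Hisat2 to GRCm38 and used HTSeq-count with the Ensembl 99 annotation. They deposited raw counts per gene, and bcl2fastq 2.17.1.14 is named in the processing notes of the submitters. The handling of strand and of reads with several matches is not given in the sources used here. The labels name poly(A) RNA, and the methods name both a Ribo-Zero total RNA kit and polyA RNA. The deposited tables of the authors' own comparisons (DESeq2 and FCROS) hold fold changes and p-values and were not used.

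Gene symbols came from GENCODE M21, which matched 55144 of the 55385 identifiers. Counts were normalised by TMM, filtered with filterByExpr and tested over all genes with the quasi-likelihood test of edgeR 4.0.16 (R 4.3.3), with each region fitted on its own on genotype alone, p-values adjusted by Benjamini-Hochberg over every tested gene and a threshold of 0.05. For the distance from 1.5-fold, log(1.5) was added to the offsets of the Ts66Yah libraries, with adjustment over the segment genes, and for the summed row Sod1 and Gm8566 were added. The share of Gm8566 was compared by an exact permutation test, and Wilson intervals had a level of 95%. Alternatives were DESeq2 1.42.0, limma voom (limma 3.58.1), RLE size factors, other filters, all 22 libraries in 1 fit, blocks by replicate number or by range of animal numbers, and leaving out each library. The script was tested on simulated data with known fold changes.

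HIP and EC libraries with the same number came from the same animal, so the numbers pair the regions. Their deviations from the group means correlated at 0.20 to 0.61, and every library correlated best with its own number.

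Genes named were the 10 members in every comparison. Of the antioxidant list they were every gene called by genotype, the 3 with the smallest p in each genotype comparison, the 5 with the largest region difference among those called, and Ccs, Bach1 and Keap1. Genes that overlap or share sequence with a member and the 3 genes most like each member were named too. The members and lists were chosen with earlier results of these data known. The fit with the short-transcript measure, the region comparison in Ts66Yah mice and the count of groups without overlap were chosen after seeing the data. The letters of the alignment of Sod1 and Gm8566 are not reported here.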

Additional observations from a re-analysis of the deposited data

Results flagged for a closer look

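In 48 groups of values (the members, the sum and the share of Gm8566 in 4 groups), 3 values lay far from the rest of their group by Dixon's test. Chance gives this for about 1 in 20 groups, a rate close to 3 in 48. In Ts66Yah HIP, replicate 2 had a Gm8566 share of 15.5%, below the other 5 libraries at 16.9% to 17.6%. The same library had the lowest Nfe2l2, 13.4 CPM, against 17.6 to 20.04 CPM in the others. In Ts66Yah EC, replicate 5 had 15.3 CPM of Sod3, against 8.54 to 10.8 CPM in the others, and this is also the Ts66Yah library with the highest short-transcript measure and mitochondrial share.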

How the results depend on the processing

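Of 465 values recomputed under other settings, 421 kept their direction and their side of the threshold, and of 740 without 1 library, 656 did. The cause of the changes below was not tested. In HIP, Cbr1 was called with DESeq2 (0.40), no filter (0.40), the filter at 1 CPM (0.40) and the short-transcript covariate (0.44). Gm8566 (0.63) and Cbr3 (0.53) were not called with all 22 libraries in 1 fit, and Sod1 (0.42), Gm8566 (0.62) and Cbr3 (0.52) were not called with a block for the 2 ranges of animal numbers, which left out 1 animal and turned Sod3 to -0.034 and Cat to 0.0019. In EC, DESeq2 called Sod1 (0.46), Gm8566 (0.74), Cbr1 (0.59) and the sum (0.51), all 22 libraries in 1 fit called Sod1 (0.46), Gm8566 (0.73) and Cbr1 (0.59), and no filter called Cbr1 (0.59). The short-transcript covariate called Sod1 (0.51), Gm8566 (0.83), Cbr1 (0.65) and the sum (0.56). Sod2 turned to -0.0093 with this covariate and to -0.012 with the block by animal numbers, which also turned Gpx1 to -0.00078.

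Wt and Ts66Yah mice shared only a replicate number, and the correlations of same-numbered libraries were 0.0054 to 0.12 in HIP and 0.013 to 0.28 in EC. With the replicate block, Cbr3 (0.53) and Bach1 (0.43, adjusted p 0.0581) in HIP were not called, Sod1 (0.48) and the sum (0.52) in EC were, and Sod2 in EC turned to -0.011. In the wt region comparison and the interaction the replicate block is the animal; it changed no call and turned the interaction of Cbr3 to -0.022. The interaction of Cbr3 was -2.84e-05 with RLE size factors and -0.00080 with DESeq2, the distance of Cbr1 from 1.5-fold in EC was 0.0032 with RLE, and the wt region difference of Sod2 was 0.0075 with DESeq2. Called antioxidant genes numbered 5 (DESeq2), 1 (replicate block) and 1 (animal numbers) in HIP, and 3 (DESeq2), 2 (no filter), 3 (all 22 libraries), 2 (replicate block) and 3 (covariate) in EC. The share of all genes called is not given for these settings.

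Without 1 library, the EC log2 fold changes were 0.41 to 0.57 for Sod1, 0.62 to 0.90 for Gm8566, 0.51 to 0.74 for Cbr1, 0.46 to 0.62 for the sum, -0.017 to 0.22 for Gpx1, -0.023 to 0.059 for Sod2, -0.054 to 0.18 for Sod3 and -0.072 to 0.047 for Keap1, with 1 to 3 antioxidant genes called. The EC share difference was 1.89 to 3.31 points (adjusted p 0.0190 without wt EC replicate 3), and the EC distances from 1.5-fold were -0.073 to 0.15 for Cbr1, -0.19 to 0.025 for Cbr3 and -0.12 to 0.039 for the sum. In HIP the log2 fold changes were 0.34 to 0.45 for Cbr1 (called without wt replicates 3 and 5), 0.46 to 0.56 for Cbr3, 0.52 to 0.73 for Gm8566, -0.042 to 0.0098 for Cat, -0.14 to 0.021 for Gpx1, -0.091 to 0.028 for Nfe2l2, -0.088 to 0.14 for Sod3, -0.28 to -0.18 for Keap1, -0.085 to 0.16 for Gpx3, -0.025 to 0.068 for Gstm7 and -0.082 to 0.20 for Slc7a11. Region differences in wt were 0.18 to 0.36 for Sod1, -0.20 to -0.15 for Cat, -0.45 to -0.29 for Hmox1, -0.25 to -0.18 for Bach1, -0.047 to 0.030 for Sod2, -0.0034 to 0.22 for Sod3, -0.026 to 0.083 for Ccs and -0.057 to 0.072 for Keap1.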
